A study of Homo sapiens with 8 samples.

Results

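The microRNA levels of A549 and LC2/ad, a pair of human lung adenocarcinoma cell lines, were compared. TaqMan reverse transcription PCR assays were run on a pair of array cards, A and B. All microRNA assays with a threshold cycle (Ct, the PCR cycle at which the product crosses a set brightness) of 35 or below in at least 1 of the 4 samples of these lines were taken, which gave 319 of the 754 assays, 197 on card A and 122 on card B. Each line was measured once untreated, as the control, and once after TGF-β1 (5 ng/ml, 72 h). The study held 8 samples, since the lines PC3 and PC9 were treated and measured the same way.

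A549 is a widely used lung adenocarcinoma line, and LC2/ad is known for its CCDC6-RET gene fusion. Both were kept in RPMI with fetal bovine serum, from 1 thawed aliquot each, and per the labels the authors did not authenticate them. Each line is 1 culture lineage, and nothing in the labels says that a culture was repeated. The question of this comparison, which microRNAs differ between the lines whatever the treatment, is not one the labels state.

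MicroRNAs are short RNAs cut from hairpin precursors and loaded into Argonaute proteins. They repress messenger RNAs that pair with their seed, bases 2 to 8 counted from the 5′ end, so microRNAs with the same seed share most of their predicted targets. Many lie in clusters that are transcribed as 1 precursor. In carcinoma cells the miR-200 family is known for repressing the ZEB factors and so holding the epithelial state, the miR-17-92 cluster is known as a MYC target that promotes proliferation, and the microRNAs of the imprinted 14q32 region are usually silent in adult epithelium.

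The mature sequences that the results turn on are printed first, 5′ to 3′ with the seed in capitals, as RefSeq gives them with GRCh38.p14 positions. Card names often carry no arm, so the arm was assigned from the usual naming. The 5 members of the miR-200 family come from 2 clusters and carry 2 seeds. They are shown because the family lay on the A549 side:
miR-200b: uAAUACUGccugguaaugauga
miR-429: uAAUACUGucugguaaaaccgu
miR-200c: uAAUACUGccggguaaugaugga
miR-200a: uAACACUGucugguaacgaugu
miR-141: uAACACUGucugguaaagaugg

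The next are 5 further microRNAs with a higher level in both A549 samples than in both LC2/ad samples, each with a seed that none of the others printed here has. miR-192 and miR-192# are the arms of 1 hairpin, where # marks the passenger strand:
miR-95: uUCAACGGguauuuauugagca
miR-224: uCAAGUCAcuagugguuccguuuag
miR-452: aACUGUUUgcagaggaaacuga
miR-192: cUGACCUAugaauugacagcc
miR-192#: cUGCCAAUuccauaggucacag

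On the LC2/ad side, 6 microRNAs of the miR-17-92 cluster and its paralogs carry 1 seed. miR-17 and miR-106a differ at 1 base of 23, the first, and miR-20a and miR-20b at 2, so assays of this group may read each other's product and are uncertain one by one:
miR-17: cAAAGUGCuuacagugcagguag
miR-106a: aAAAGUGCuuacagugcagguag
miR-20a: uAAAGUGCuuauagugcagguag
miR-20b: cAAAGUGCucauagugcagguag
miR-93: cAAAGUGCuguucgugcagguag
miR-106b: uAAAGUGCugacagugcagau

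Also on the LC2/ad side are the neighbours miR-132 and miR-212, which share a seed, miR-449a and miR-449b, which carry the seed of miR-34a, miR-888, and 6 microRNAs of 14q32, whose seeds all differ:
miR-132: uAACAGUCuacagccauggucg
miR-212: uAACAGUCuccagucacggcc
miR-449a: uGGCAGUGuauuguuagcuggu
miR-449b: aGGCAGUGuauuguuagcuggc
miR-34a: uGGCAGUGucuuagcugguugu
miR-888: uACUCAAAaagcugucaguca
miR-127-3p: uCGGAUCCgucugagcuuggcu
miR-409-3p: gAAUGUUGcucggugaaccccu
miR-376c: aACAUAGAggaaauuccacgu
miR-539: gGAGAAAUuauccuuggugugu
miR-411: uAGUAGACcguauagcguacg
miR-323-3p: cACAUUACacggucgaccucu

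Before any single microRNA, the samples themselves were compared, because A549 and LC2/ad were far more alike than any other lines of the study. Over 110 assays whose Ct was at most 32 throughout the study, the standard deviation (SD) of the level difference, in log2 units, was 0.62 between the control samples of A549 and LC2/ad and 0.61 between their TGF-β1 samples. Against PC3 or PC9 the samples of these lines gave 1.72 to 2.25. Within a line, control and TGF-β1 samples gave 0.54 in A549 and 0.72 in LC2/ad.

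Both LC2/ad samples were therefore nearer to the A549 sample of the same treatment than to each other, while the A549 samples were nearest to each other. Across treatments the lines gave 0.74 and 0.80. Over the 150 assays at 32 or below in these 4 samples, 12.7% differed at least 2-fold between the controls and 10.7% between the TGF-β1 samples, against 17.3% within LC2/ad and 6.67% within A549. The labels give no cause, and none was tested. Every difference below is between samples labelled A549 and samples labelled LC2/ad, and is given for the control pair and for the TGF-β1 pair.

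**Figure D1:**
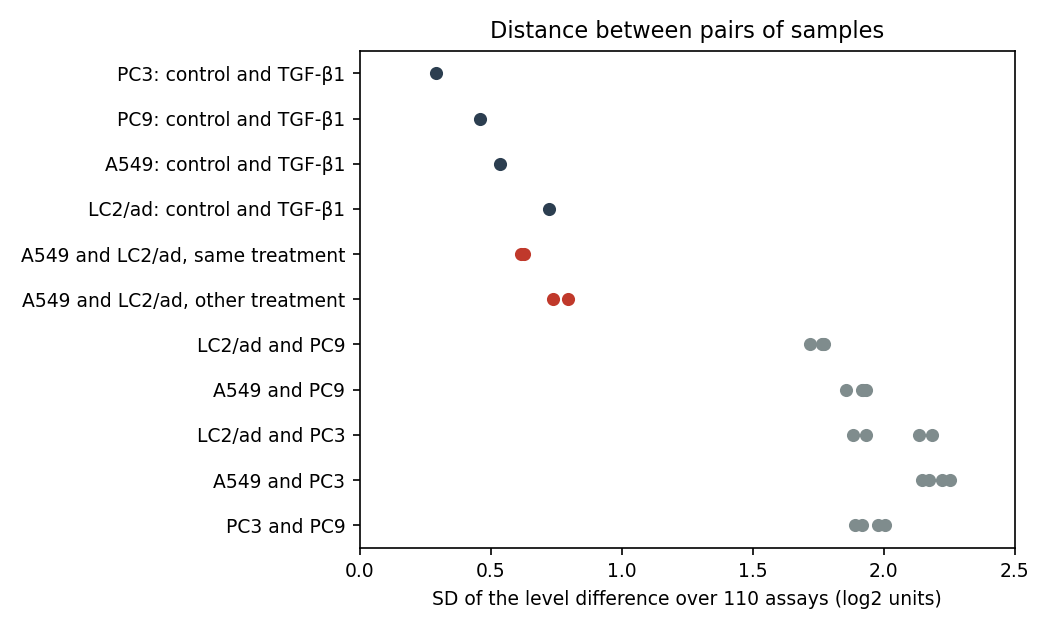
Distance between samples, as the SD of the level difference (log2 units) over 110 assays whose Ct was at most 32 in every sample, 1 point per pair of samples. Dark points are pairs within a line, red points pairs of A549 with LC2/ad (0.61 to 0.80) and grey points all remaining pairs, at 1.72 or more.

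The same was seen in a test of every pair of lines. With all 8 samples in 1 limma model of line and treatment over the 168 assays detected throughout, 1 assay (0.595%), miR-224, differed between A549 and LC2/ad at an adjusted p of 0.05. Between A549 and PC3 111 assays differed (66.1%), between A549 and PC9 98 (58.3%), between LC2/ad and PC3 100 (59.5%), between LC2/ad and PC9 86 (51.2%) and between PC3 and PC9 98 (58.3%). The median size of the difference was 0.37 for A549 and LC2/ad and 0.95 to 1.15 for the other 5 pairs.

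Detection and signal were similar. In A549 the control detected 249 assays and the TGF-β1 sample 256, and in LC2/ad the numbers were 281 and 261. The mean Ct of the microRNAs used for scaling ran from 27.5 to 27.9 on card A and from 28.7 to 29.3 on card B, and the mean of the U6 wells from 18.9 to 19.5. The plant assay, a negative control, did not amplify in any sample. On card A, the deposited Ct values of both A549 samples and the LC2/ad control carry more than 2 decimals, while those of the LC2/ad TGF-β1 sample have 2, so the control pair shares 1 number format and the TGF-β1 pair does not.

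Markers fit a pair of epithelial lines only in part. Of the epithelial markers, miR-200a, miR-200b and miR-200c were detected in all 4 samples at Ct 29.6 to 33.8. miR-429 and miR-141 were detected in some of them, and miR-205 did not amplify. The red-cell marker miR-451, the muscle markers miR-1 and miR-133b and the liver marker miR-122 were at 40 in all 4 samples. Of 10 blood assays, 4 were detected in any sample. Other markers of non-epithelial cells were detected in all 4 samples. These were endothelial miR-126 (Ct 25.5 to 25.9) and the nerve assays miR-9 (28.5 to 29.7) and miR-128 (31.6 to 32.7). The neuroendocrine marker miR-375 was also detected in all 4 samples (30.8 to 32.5), while miR-7-2#, the other assay of that list, was above 35 throughout. The nerve assays miR-124 and miR-219-5p were above 35 throughout. Of the 9 fibroblast and smooth muscle assays 3 were detected in any sample, miR-143, miR-145 and miR-199a-3p, all in LC2/ad and above 35 in both A549 samples, and miR-214 was at 40 throughout.

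Of the 319 assays, 215 were detected in all 4 samples, 28 in 3, 27 in 2 and 49 in 1. At least 1 A549 sample detected 275, at least 1 LC2/ad sample 303, and both lines 259. The assays seen in LC2/ad alone were mostly seen in 1 sample: 23 in the control, 12 in the TGF-β1 sample and 9 in both. In A549 alone, 8 were seen in the control, 6 in the TGF-β1 sample and 2 in both. LC2/ad thus had the longer list, and most assays seen in one line alone were seen in a single sample.

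For each sample and card, a level is the mean Ct of the shared microRNAs minus the assay's Ct, in log2 units where 1 stands for a doubling. Levels under the highest detection limit of the 4 samples were set to that limit, which left 307 assays with a value above it, of which 213 lay above it in all 4 samples. Where only the lower line lay at the limit, the difference is a lower bound and is written as at least. A difference is A549 minus LC2/ad, averaged over both treatments, with n = 2 samples per line and its standard error (SE) from limma.

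No microRNA passed the test of the 4 samples. With treatment as a covariate, limma called 0 of 307 assays higher in A549 (0%) and 0 higher in LC2/ad (0%) at an adjusted p of 0.05, and the smallest adjusted p was 0.308. Before adjustment, 35 assays had a p under 0.05, 20 higher in A549 and 15 higher in LC2/ad, where 15.35 would be reached by chance. The design leaves 1 residual degree of freedom, so the error is the disagreement of the 2 pairs, pooled over assays. The median SE was 0.30.

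With all 8 samples in the model, 3 assays were higher in A549 (0.977%) and 1 in LC2/ad (0.326%). They were miR-95 (adjusted p = 0.0262, limma), miR-224 (0.0452) and miR-886-5p (0.0452) on the A549 side and miR-888 (0.0256) on the LC2/ad side. That model takes its error from all 4 lines, but samples set to the limit add no spread of their own. Both A549 samples, PC3 and PC9 lay at the limit for miR-888, PC9 for miR-95 and PC3 for miR-886-5p. How far this lowered their adjusted p was not tested. The model also depended on single samples. Without either A549 sample it called 0 in each direction. Without the LC2/ad control it called 1 assay higher in A549 and 7 in LC2/ad, and without the LC2/ad TGF-β1 sample 1 and 10. miR-224, miR-888 and miR-127-3p were called without either LC2/ad sample, while miR-95 and miR-886-5p were called in none of the fits that left out a sample.

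The lines agreed closely for most microRNAs. Of the 213 assays above the limit in all 4 samples, 145 differed less than 1.5-fold in the mean and 26 at least 2-fold. A549 had the higher mean for 105 and LC2/ad for 108. For 47 of the 307 assays the 95% interval of the difference lay within 2-fold either way, and for 35 it excluded 0. The median size of the difference over the 213 was 0.39.

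Some microRNAs with low Ct values differed little between the lines. Those given here were picked as the most alike, so they do not show that abundant microRNAs differed less than others. That was not tested. miR-484, which is sometimes used as a reference, had Ct values of 22.7 and 22.7 in A549 (control, then TGF-β1) and 22.5 and 22.9 in LC2/ad, a difference of 0.03 (interval -0.80 to 0.86). For miR-29a, which represses collagens, the values were 21.6 and 21.4 against 21.5 and 21.5, a difference of 0.10 (-0.77 to 0.97). miR-30c gave 0.04, let-7e -0.04 and miR-331-3p -0.07, with opposite signs in the 2 pairs for each of these 5. The levels of the lines overlap for all of them.

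The lowest Ct values in both lines were those of the tRNA-derived assays miR-1274B, miR-720 and miR-1274A and of miR-31 and miR-24. Assays amplify with different efficiency, so this is an order of Ct and not of abundance. miR-1274B had Ct 19.99 and 19.1 in A549 against 18.5 and 19.1 in LC2/ad, a difference of -0.55 (SE 0.35). miR-31, which is often raised in lung adenocarcinoma, had 20.7 and 19.7 against 21.1 and 19.9, a difference of 0.32 (SE 0.33). None of these passed the test.

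The pairs themselves agreed in part. Over the 213 assays the difference in the control pair and in the TGF-β1 pair correlated at Pearson r = 0.45 and Spearman rho = 0.43, a description across assays that share samples and scaling, and 143 assays (67.1%) had 1 sign in both. Among all 307, 84 assays were higher in A549 in both pairs (27.4%) and 85 higher in LC2/ad in both (27.7%). At least 2-fold in both pairs were 16 higher in A549 (5.21%) and 9 higher in LC2/ad (2.93%), of which 14 were above the limit in all 4 samples and 11 are bounds. None of these 25 changed sign with the scaling.

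**Figure D2:**
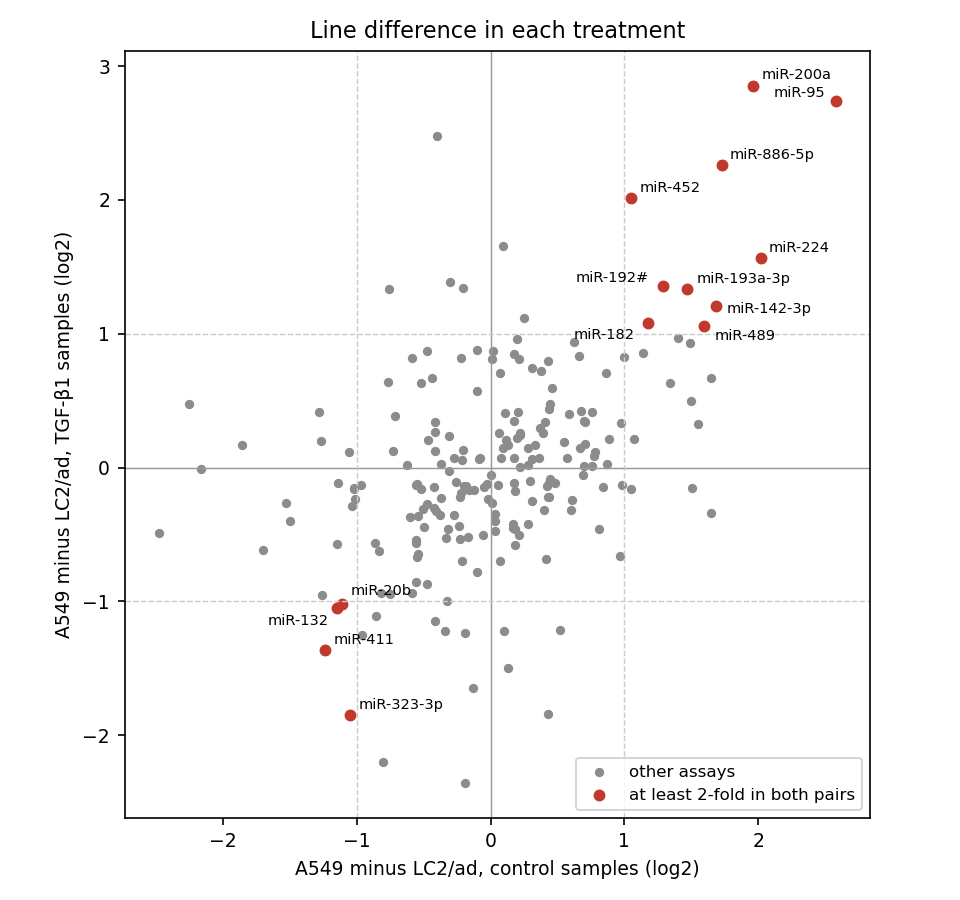
The difference between A549 and LC2/ad (log2) in the TGF-β1 samples against that in the control samples, for the 213 assays above the limit in all 4 samples. Red points, with names, are the 14 assays at least 2-fold apart the same way in both pairs; grey points are the rest, most of them near 0.

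miR-95 had the largest offset towards A549. Its Ct was 29.6 and 29.9 in A549 against 31.8 and 32.9 in LC2/ad, so both A549 samples lay below both LC2/ad samples. The difference was 2.66 (SE 0.25, interval 1.86 to 3.46), or 6.33-fold, with 2.58 in the control pair and 2.74 in the TGF-β1 pair. Its adjusted p was 0.308 in the 4 samples (limma), the value shared by many assays with a small p. PC9 had no level above the limit and PC3 had -3.70, against -2.01 in A549 and -4.67 in LC2/ad.

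miR-886-5p, now known as a piece of the vault-like non-coding RNA nc886 and not a microRNA, came next among the assays measured throughout and below Ct 32 in A549. Its Ct was 30.6 and 30.3 in A549 against 31.98 and 32.8 in LC2/ad, with no overlap, and the difference was 1.99 (SE 0.29) or 3.98-fold. The other assay of that RNA, miR-886-3p, had 0.57 in the mean and no single sign.

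The neighbours miR-224 and miR-452 lie in an intron of GABRE, a GABA receptor subunit gene, at chrX:151958628-151958652 and chrX:151959678-151959699 (minus strand). miR-224 had Ct 25.0 and 24.9 in A549 against 26.6 and 26.8 in LC2/ad. The samples of each line lay close together, and the difference was 1.79 (SE 0.28, interval 0.89 to 2.69) or 3.46-fold. miR-452 had 28.5 and 28.1 against 29.2 and 30.4, a difference of 1.53 (SE 0.37) that was 1.05 in the control pair and 2.01 in the TGF-β1 pair. Both members tested of the list lay at least 2-fold higher in A549 in both pairs, where 5.21% of all assays did. As neighbours in 1 intron they are not independent. Their median was 1.66 against -0.06 for all 307 assays.

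The miR-192, miR-194 and miR-215 family, epithelial microRNAs of gut and kidney that p53 is known to induce, also lay on the A549 side. All 4 members tested were higher in A549 in both pairs, against 27.4% of all assays, with a median of 1.16. Members of a list share hairpins, clusters and samples, so they are not independent. miR-192 had Ct 22.3 and 22.7 in A549 against 23.0 and 23.8 in LC2/ad, a difference of 1.00 (SE 0.26). Its other arm, miR-192#, had 28.5 and 28.5 against 29.2 and 29.9, a difference of 1.32 (SE 0.24), so both arms of the hairpin at chr11:64891159-64891223 (minus strand) were offset alike.

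miR-194, encoded beside miR-192 and again on chromosome 1, had Ct 24.1 and 24.2 in A549 against 24.3 and 25.4 in LC2/ad, a difference of 0.78 (SE 0.26). Its passenger miR-194# had 32.5 and 33.2 against 36.9 and 36.7, a difference of at least 1.93. miR-215, which shares the seed of miR-192, was at 40 in all 4 samples. In every member detected, both A549 samples lay below both LC2/ad samples, by little for miR-194.

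The miR-200 family lay late in the PCR in both lines, mostly with the higher level in A549, and no member passed the test. Of 6 members tested, 4 were higher in A549 in both pairs, against 27.4% of all assays. In LC2/ad 0 were higher in both pairs, 2 had no single direction, and the median was 0.84. The 3 genes of the chromosome 1 cluster, in the transcript MIR200BHG, led. miR-200a had Ct 32.2 and 30.1 in A549 against 33.8 and 33.2 in LC2/ad, a difference of 2.41 (SE 0.36, interval 1.25 to 3.57) or 5.31-fold. miR-200b had 30.5 and 29.6 against 31.8 and 30.6, a difference of 1.16 (SE 0.38) whose TGF-β1 pair gave 0.67. miR-429 had 33.5 and 30.9 against 36.6 and 32.5, at least 1.41.

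The chromosome 12 cluster of the family differed less. miR-200c had Ct 31.2 and 31.2 in A549 against 31.0 and 32.3 in LC2/ad, a difference of 0.51 (SE 0.31) with overlapping samples. miR-141 had 34.6 and 40 against 35.3 and 40, so neither line held it firmly. The mean level of miR-200a was -3.45 in A549 and -5.86 in LC2/ad, against 0.86 in PC9 and -7.12, the limit, in PC3.

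The cluster of miR-182, miR-96 and miR-183 on chromosome 7 is a sensory-organ cluster often raised in carcinomas. All 4 assays had a higher A549 level in both pairs, against 27.4% of all assays, with a median of 0.35. miR-182 had Ct 29.8 and 28.9 against 30.6 and 30.2, a difference of 1.13 (SE 0.24). miR-183 had 0.16 (SE 0.24) and miR-183# 0.26 (SE 0.26). miR-96 had at least 0.45, but -0.54 in the model of all lines without the LC2/ad control.

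In the miR-30 family, known for restraining mesenchymal genes, 5 of 7 members tested were higher in A549 in both pairs. Over all assays that share was 27.4%. In LC2/ad 0 were higher in both pairs, and the median was 0.44. miR-30a-5p had Ct 24.1 and 23.8 in A549 against 25.0 and 24.8 in LC2/ad, a difference of 1.21 (SE 0.29) or 2.31-fold. miR-30d had 26.3 and 26.1 against 27.1 and 27.1, a difference of 1.18 (SE 0.27). Both were short of 2-fold in the TGF-β1 pair, at 0.93 and 0.97. miR-30b gave 0.55 and miR-30c 0.04.

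Further microRNAs at least 2-fold higher in A549 in both pairs came from other genes. miR-489, in an intron of the calcitonin receptor gene CALCR, had Ct 28.5 and 28.9 in A549 against 29.7 and 30.2 in LC2/ad, a difference of 1.33 (SE 0.29). miR-193a-3p had 32.2 and 31.97 against 33.3 and 33.5, a difference of 1.40 (SE 0.24). The opposite arm of that hairpin, miR-193a-5p, had 29.7 and 29.4 against 28.8 and 29.0, a difference of -0.59 (SE 0.24), so the arms were offset in opposite directions in both pairs.

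miR-142-3p, a marker of blood cells, had Ct 33.2 and 32.5 in A549 against 34.5 and 34.0 in LC2/ad, a difference of 1.44. The other arm, miR-142-5p, and miR-451 did not amplify. The summed level of the blood list ran from -2.85 to -2.84 in A549 and from -3.21 to -3.13 in LC2/ad.

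The other bounds on the A549 side were miR-1247 (Ct 31.8 and 33.1 against 34.9 and 40, at least 2.32), miR-1267 (32.5 and 33.2 against 40 and 37.1, at least 1.96), miR-135b (32.7 and 29.99 against 40 and 31.4, at least 1.71) and miR-361-3p (32.1 and 33.3 against 32.7 and 35.6, at least 1.20). miR-1247 lies next to DIO3 on chromosome 14, in DIO3OS, at the far end of the imprinted 14q32 region from miR-127. All 4 rest on LC2/ad samples near or past the limit, and the A549 samples overlap the LC2/ad samples for miR-135b and miR-361-3p.

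**Figure D3:**
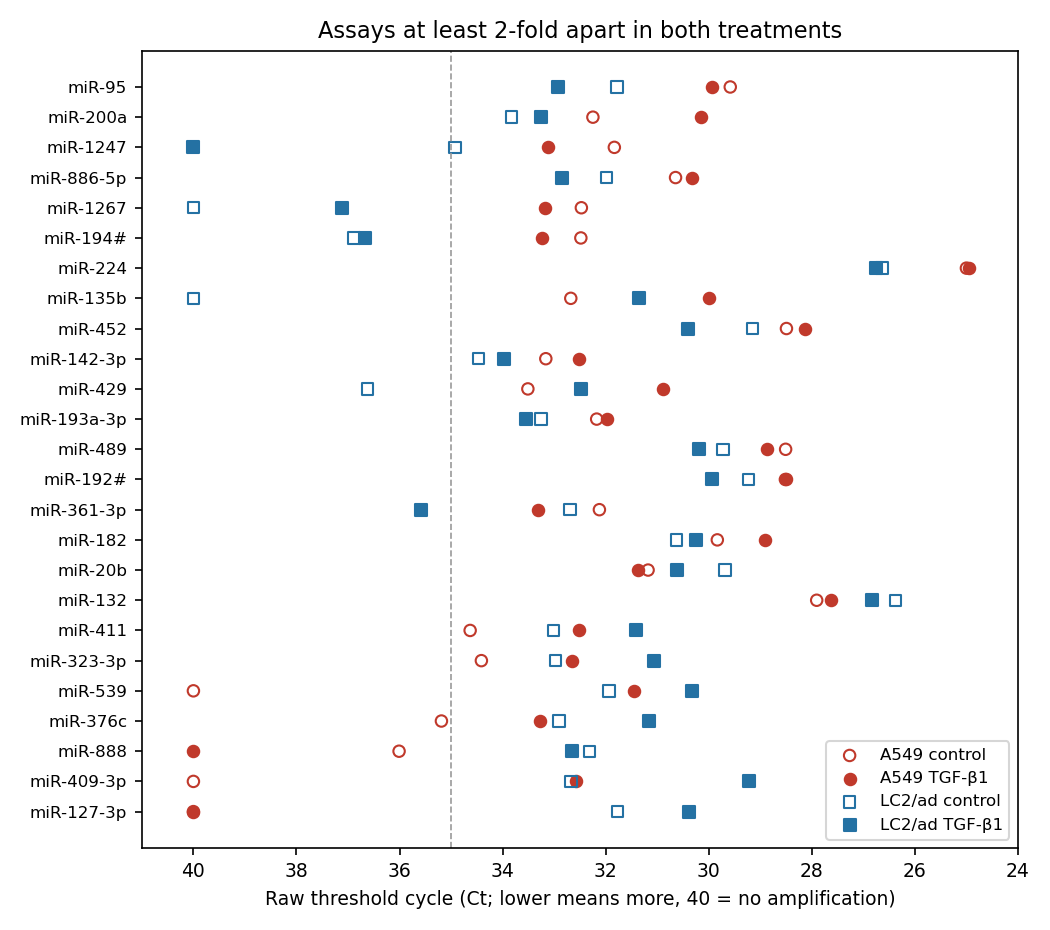
Raw Ct of each of the 4 samples for the 25 assays at least 2-fold apart in both pairs, with the axis turned so that more RNA lies to the right. Circles are A549, squares LC2/ad, open symbols controls and filled symbols TGF-β1 samples; the dashed line marks Ct 35 and points at 40 did not amplify.

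miR-127-3p set the lines apart most. It is an imprinted microRNA at chr14:100883035-100883056 (plus strand), antisense to the placental gene RTL1. It did not amplify in either A549 sample, while LC2/ad had Ct 31.8 and 30.4, a level at least 3.73 higher (13.3-fold), with 2.84 in the control pair and 4.62 in the TGF-β1 pair as bounds. It was the only assay of the 319 at 32 or below in both samples of one line and above 35 in both of the other. PC3 and PC9 had no level above the limit, so LC2/ad alone carried it. Its adjusted p was 0.308 (limma, 4 samples).

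Other 14q32 microRNAs followed the same order in part. Of the 59 assays of the region on the cards, 17 were detected in a sample of these lines and 16 tested: 8 were higher in LC2/ad in both pairs, 1 in A549, and 7 had no single direction, with a median of -1.25. Over all assays 27.7% were higher in LC2/ad in both pairs. At least 2-fold in both pairs were 6 of the 16, each higher in LC2/ad, where 2.93% of all assays were. The detected member that was not tested, miR-377, was detected in the A549 TGF-β1 sample alone (Ct 34.9). miR-1247, near DIO3, is not in this list and lay the other way. The study itself picked some of this list from these samples, so its direction is not independent evidence.

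miR-409-3p had Ct 40 and 32.6 in A549 against 32.7 and 29.2 in LC2/ad, at least 2.60 higher in LC2/ad. miR-539 had 40 and 31.5 against 31.9 and 30.3, at least 2.02, and miR-376c had 35.2 and 33.3 against 32.9 and 31.1, at least 2.04. miR-411 and miR-323-3p were measured throughout: miR-411 had 34.6 and 32.5 against 33.0 and 31.4 (difference -1.30, SE 0.24), and miR-323-3p had 34.4 and 32.7 against 33.0 and 31.1 (-1.45, SE 0.34). In these 5 the TGF-β1 sample of each line had the lower Ct, and the LC2/ad sample lay below the A549 sample of the same treatment, while the A549 TGF-β1 sample lay below the LC2/ad control in 4 of them.

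Between chr14:101022066 and chr14:101054759, 8 assays matched a RefSeq gene by name, and these 8 means were higher in LC2/ad (median -1.36), 5 of them in both pairs. miR-379 did not amplify in A549 and had Ct 34.2 and 30.9 in LC2/ad. miR-494, which had the lowest Ct of the 8, had 29.3 and 29.4 against 28.7 and 29.2 (-0.31, SE 0.24). In the RTL1 group, 4 of 5 means were higher in LC2/ad, and miR-432# was the exception (0.41, SE 0.34, and -0.30 without the LC2/ad TGF-β1 sample). Only miR-127-3p of this group was higher in LC2/ad in both pairs. miR-433, miR-432 and miR-136# were each detected in 1 LC2/ad sample and in no A549 sample.

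The series title names 3 of the region. miR-134 had Ct 40 and 35.1 in A549 against 36.6 and 32.6 in LC2/ad, and miR-487b 37.8 and 34.4 against 38.4 and 32.5. Both were above 35 in each control, so a line difference shows in the TGF-β1 pair alone. There miR-134 was at least 2.41 higher in LC2/ad, and miR-487b, measured in both samples, 2.17 higher. miR-655 had 40 and 38.8 against 40 and 35.8 and was not a member.

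Fibroblast and smooth muscle markers lay on the same side as 14q32. miR-143 had Ct 40 and 36.1 in A549 against 33.7 and 31.9 in LC2/ad, miR-145 had 40 and 35.7 against 35.9 and 31.3, and miR-199a-3p had 40 and 40 against 40 and 34.5. The summed level of the 9 assays was -3.33 in both A549 samples, the value at the limit, and -3.24 and -2.06 in LC2/ad. The other 6, miR-214 among them, were above 35 in all 4 samples. In bulk RNA fewer cells that hold a microRNA and less of it per cell cannot be told apart, and the part of these markers in the 14q32 values was not tested.

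miR-888, at chrX:145994830-145994850 (minus strand), lay at least 2-fold higher in LC2/ad in both pairs. Its Ct was 36.0 and 40 in A549 against 32.3 and 32.7 in LC2/ad, at least 2.32 higher (4.98-fold), with nearly the same bound in the pairs, 2.29 and 2.34. It is known from the epididymis, and it had no level above the limit in PC3 or PC9. It was counted in a list of 16 assays named after miR-506 to miR-514, of which 2 were detected, miR-888 and miR-891a. Only miR-888 was tested, and the assays miR-506 to miR-513-5p of that list were all above 35.

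miR-132 and miR-212, activity-induced microRNAs of neurons that CREB drives, share a seed and lie side by side on chromosome 17. miR-132 had Ct 27.9 and 27.6 in A549 against 26.4 and 26.8 in LC2/ad, a difference of -1.10 (SE 0.24, interval -1.89 to -0.31) with no overlap. miR-212 had 35.1 and 33.8 against 34.5 and 32.3, at least 0.95 higher in LC2/ad, with 0.10 in the control pair. Of the 6 nerve assays tested 3 were higher in LC2/ad in both pairs, against 27.7% of all assays, and 0 in A549. However, miR-124 was above 35 in all 4 samples and the median was -0.25.

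The miR-17-92 cluster and its paralogs formed the widest group on the LC2/ad side. Of 19 members tested, 13 were higher in LC2/ad in both pairs and 1 in A549, with a median of -0.37, against 27.7% of all assays higher in LC2/ad in both pairs. The offsets were small. miR-17 had Ct 21.8 and 22.1 in A549 against 20.9 and 21.4 in LC2/ad, a difference of -0.76 (SE 0.26), and miR-106a had 21.9 and 22.2 against 20.9 and 21.8, a difference of -0.61 (SE 0.24). For both microRNAs each LC2/ad sample lay below both A549 samples.

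miR-20b was the member at least 2-fold apart in both pairs, with Ct 31.2 and 31.4 against 29.7 and 30.6 (-1.06, SE 0.24). miR-18a gave -0.70, miR-19b -0.37, miR-20a -0.35 and miR-92a -0.39. The 5 assays within MCM7, a subunit gene of the replication helicase, all had the higher mean in LC2/ad, with miR-93 at -0.63, miR-106b at -0.34 and miR-25 at -0.08. miR-106b# there had 32.4 and 32.1 against 29.3 and 31.7, a difference of -1.49 (SE 0.63) that was -2.48 in the control pair and -0.49 in the TGF-β1 pair. miR-20a# was the member higher in A549 in both pairs, at 0.52.

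miR-130b and miR-301b, from 1 cluster of the miR-130 family that targets TGF-β pathway genes, were both higher in LC2/ad in both pairs, at -0.85 (SE 0.25) and -0.98 (SE 0.25). miR-301b had Ct 33.0 and 32.5 in A549 against 31.8 and 31.6. In the model of all lines its difference was -0.22 without the LC2/ad TGF-β1 sample and -1.75 without the LC2/ad control, and that of miR-130b -0.49 and -1.20. Of 6 members of the family tested, 4 were higher in LC2/ad in both pairs, against 27.7% of all assays. In A549 1 was higher, miR-454 at 0.23, and the median was -0.46.

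miR-449a and miR-449b, in an intron of CDC20B and best known from multiciliated airway cells, had differences of -1.50 (SE 0.48) and -1.16 (SE 0.40). For miR-449a the pairs gave -0.81 and -2.20, and in the model of all lines it had -0.05 without the A549 TGF-β1 sample and -2.96 without the A549 control. miR-449a had Ct 32.3 and 34.5 against 31.1 and 32.5, and miR-449b 34.7 and 33.5 against 32.6 and 33.2. miR-34a, the p53 target with the same seed, went the other way, with 27.0 and 26.6 in A549 against 26.9 and 27.6 in LC2/ad (0.53, SE 0.27). Their list thus held both directions, 2 towards LC2/ad, 1 towards A549 and 3 with none.

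Other microRNAs offset towards LC2/ad were miR-149, in an intron of the glypican gene GPC1, with Ct 31.1 and 30.4 against 29.4 and 29.7 (-1.11, SE 0.26), and miR-766, with 32.2 and 32.6 against 30.6 and 31.4 (-1.11, SE 0.26). miR-324-5p had -1.09 and miR-455-3p -1.27, but each rested on 1 pair: miR-324-5p had -2.17 in the control pair and -0.01 in the TGF-β1 pair, and miR-455-3p -0.19 and -2.36. None passed the test.

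**Figure D4:**
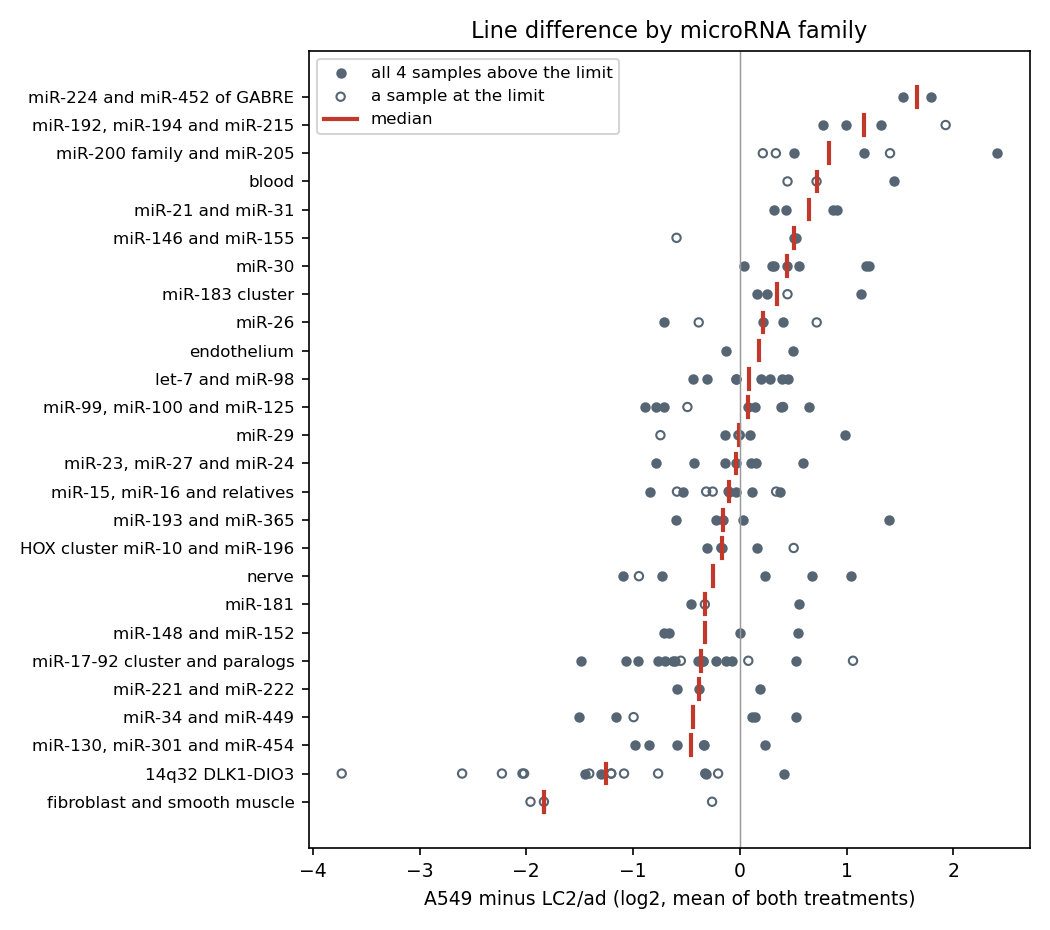
Difference between A549 and LC2/ad (log2, mean of both treatments) for the members tested of each list with at least 2 such members, ordered by the median (red bar). Filled points lay above the limit in all 4 samples and open points had at least 1 sample at it. Open points are pulled towards 0 where only the lower line lay at the limit, and otherwise may be moved either way. miR-224 with miR-452 and miR-192 with miR-194 lie furthest to the right, and 14q32 and the 3 fibroblast markers furthest to the left.

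Several families known from epithelial and lung cancer cells held no single direction. Of the 8 let-7 and miR-98 assays, tumour-suppressive microRNAs that repress HMGA2, 2 were higher in A549 in both pairs, 1 in LC2/ad and 5 in neither, with a median of 0.08. The miR-99, miR-100 and miR-125 list had 3, 4 and 2 and a median of 0.07, and that of miR-24 with miR-23 and miR-27 had 2, 2 and 3 and -0.04. The medians of these last 2 lists and of miR-29 (-0.01) turned with the scaling.

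Within the miR-99 list the members split: miR-99a, miR-100 and miR-125b were lower in A549 in both pairs (-0.89, -0.71 and -0.78), while miR-125a-5p and miR-125a-3p were higher (0.39 and 0.64), the former at -0.07 without the LC2/ad control. Among inflammation-linked microRNAs, miR-146a had 0.53 (SE 0.24) and miR-155 at least 0.59 on the LC2/ad side. miR-21, an oncogenic microRNA of most carcinomas, had Ct 22.8 and 21.8 in A549 against 22.5 and 23.7 in LC2/ad, a difference of 0.87 (SE 0.52) that was 0.10 in the control pair and 1.65 in the TGF-β1 pair. Its passenger miR-21# had 0.91 (SE 0.25), with 1.00 and 0.83.

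Where both arms of a hairpin were measured throughout, they could be set side by side. Of 35 such pairs of arms, 23 had the same sign, and no expected share was computed. Across pairs the differences gave r = 0.42 and rho = 0.50, where the arms share a precursor and the samples. The pairs count miR-886-5p with miR-886-3p (1.99 and 0.57), which are pieces of nc886 and not arms of a microRNA hairpin. miR-192, miR-21 and miR-149 were offset alike in both arms, at 1.00 and 1.32, 0.87 and 0.91, and -1.11 and -0.62. miR-193a was the clearest exception.

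By position of the genes, some clusters lay on 1 side and others on both. Of the 319 assays, 277 matched at least 1 RefSeq microRNA gene by name and 250 exactly 1. Genes within 10 kb of each other on 1 strand formed 26 clusters with at least 2 tested genes, which held 97 assays. All assays of a cluster had the higher mean in A549 for MIR200BHG (4 of 4), the miR-182 cluster (4 of 4), MIR200CHG (2 of 2) and GABRE (2 of 2). All had the higher mean in LC2/ad for MCM7 (5 of 5), miR-20b with miR-18b and miR-106a (3 of 3), miR-424 with miR-503 and miR-450b-5p (4 of 4), the 8 of 14q32 given above and 5 clusters of 2 assays each. The MIR17HG cluster itself had 6 means towards LC2/ad and 3, all passenger strands, towards A549. The clusters not named here also held means on both sides. In the miR-424 cluster 1 assay was higher in LC2/ad in both pairs and 3 had no single direction. Among the clusters of 2 assays, miR-195 and miR-497 had no single direction either (median -0.07). A cluster of 2 assays can lie on 1 side by chance, and no expected share was computed.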

How the data were processed

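TaqMan microRNA assays ran for 40 cycles, per the labels' protocols. The deposited Ct values, in cycles, carry no normalization, and 40 means no amplification. The authors also deposited a linear ratio calibrated to the A549 control, used as an alternative, and a fold column, not used. The software behind the Ct values is not given in the sources used here. Groups come from the cell line and treatment characteristics; the source names word the exposure the other way round and were not used.

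The normalizer was the mean Ct, per sample and card, of the assays at 35 or below in every sample of the study (117 on card A, 51 on card B). Levels under the common limit (-7.12 on card A, -5.73 on card B) were set to it, and 12 of the 319 members lay under it throughout and were not tested. The model of line and treatment was fitted to the 4 samples with limma 3.58.1 in R 4.3.3 (lmFit and eBayes), two-sided, with Benjamini-Hochberg adjustment over 307 assays and a threshold of 0.05. The treatment term is the pairing of control with control and TGF-β1 with TGF-β1. With 1 culture per sample, p-values measure the spread between these samples only.

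Named microRNAs were the 8 largest differences in each direction with the higher line at Ct 32 or below, assays detected in 1 line only, the most abundant and the most alike, up to 4 members of each list, the 3 of the title, and the controls; those at least 2-fold apart in both pairs were added. Further members of these lists and clusters (miR-18a, miR-18b, miR-20a#, miR-25, miR-92a, miR-93, miR-99a, miR-106b, miR-141, miR-212, miR-379, miR-424, miR-449b and miR-503) and arm partners were chosen after their values were seen. The members and lists were chosen with earlier results of these data known. Alternatives covered the normalizer, the limit, the filter, the samples fitted, the treatment term, the variance trend, the deposited ratios and each sample left out; fitting the pairs of lines over all 8 samples was added later. Mature sequences and positions are from RefSeq (GRCh38.p14).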

Additional observations from a re-analysis of the deposited data

Results flagged for a closer look

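Of the microRNAs that the naming rule gave, 3 had line differences of at least 0.5 in opposite directions in the control pair and in the TGF-β1 pair, and with 1 sample per line and treatment the difference between the pairs was not tested. let-7b, of the let-7 family, had a difference (A549 minus LC2/ad, log2) of -0.76 in the control pair and 1.33 in the TGF-β1 pair. miR-34a#, the passenger strand of the p53 target miR-34a, had -0.59 and 0.82. miR-213, an older name for a passenger strand of miR-181a, had -1.40 and 0.75, with samples at the limit. miR-424 is not given by that rule and was picked with its values known; it had 1.47 and -2.65, with a sample at the limit.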

How the results depend on the processing

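Counts of assays past the threshold were 0 in each direction with every normalizer, limit and filter tried, with the deposited ratios, with a variance trend and without the replicate block that the treatment term forms (0 and 0). All 8 samples in the model gave 3 higher in A549 and 1 higher in LC2/ad, and leaving out a sample there gave 0 to 1 and 0 to 10. Assays at Ct 32 or below in both LC2/ad samples and above 35 in both A549 samples numbered 1, but 0 with limits of 28 and 35. Assays at least 2-fold apart in both pairs ranged from 13 to 17 (A549) and 7 to 10 (LC2/ad). Of 120 named assays over 1763 values, 1706 kept direction and side, and 10 assays turned. miR-720 (-0.13) had 0.095 with the median normalizer. Leaving out a sample gave -0.279 to 0.0267 for miR-720, -0.0707 to 0.847 for miR-125a-5p, -0.0264 to 0.544 for miR-183#, -0.542 to 1.44 for miR-96, -0.0132 to 0.238 for miR-16, -0.0570 to 0.915 for miR-31#, -0.934 to 0.0217 for miR-181a-2#, -0.288 to 0.667 for miR-210, -0.783 to 0.0383 for miR-105 and -0.296 to 1.11 for miR-432#; the cause was not tested. It also moved, by over 1.5 times, miR-200b (0.458 to 1.86), miR-429 (0.726 to 2.09), miR-21 (0.144 to 1.60), miR-21# (0.393 to 1.44), miR-106b# (-2.57 to -0.407), miR-539 (-3.33 to -0.708) and miR-409-3p (-4.11 to -1.09), among others. Another 38 named assays had no stated direction. Differences near Ct 35 rest on few template copies.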
